A study of Homo sapiens with 240 samples.

Results

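Lysosomal hydrolases and the proteins that activate or assist them were followed in HEK 293T cells given activators of AMPK or mitochondrial poisons. The members were a named list of 44 genes, taken by symbol from 5 tables of 27234 genes each, and all 44 were listed in every table. By role they comprise 14 proteases and peptidases, 13 glycosidases, 6 sulfatases with their activator, 8 lipid enzymes and lipid cofactors, and 3 further enzymes, of which 2 are phosphatases and 1 is an acetyltransferase. A member was tested in a table when it reached 1 TPM, the tables' unit of transcript abundance scaled for length and library size, in at least 3 libraries, which left 38 members in the AMPK, ESRRA and PGC1A tables and 39 in the FNIP1 and TFEB/TFE3 tables.

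Polyadenylated RNA was sequenced in 240 libraries in 80 groups of 3. HEK 293T is a line from human embryonic kidney that carries the SV40 large T antigen. AMPK is a kinase activated when cellular energy falls, 991 is a synthetic activator of it, CCCP uncouples mitochondrial respiration, and phenformin (Phen) and rotenone (Rot) block respiratory complex I. In the AMPK table, AMPK WT and AMPK KO cells were given DMSO, or 991, CCCP, Phen or Rot for 2, 4, 8 or 16 h. In the FNIP1 table both arms were FNIP1 knockout cells, rebuilt with FNIP1 cDNA that was either WT or SA5, in which 5 AMPK phosphosites are alanine, and received DMSO or 991 for the same times. The TFEB/TFE3 table held WT cells and cells lacking both transcription factors (DKO), the ESRRA table held WT and ESRRA KO cells, and the PGC1A table held cells given a control siRNA (siControl) or an siRNA against PGC1A (siPGC1A). These 3 tables had DMSO and 991 for 2, 4, 8, 16 or 24 h. DMSO was taken at 0 h only, so a change with a compound also holds whatever changes with time in culture, and the 2 cannot be told apart. Doses and clones are not given in the sources used here, and nothing there says that the 3 libraries of a group came from separate cultures, so p-values measure the spread between libraries, which may be technical.

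Lysosomal hydrolases are made in the endoplasmic reticulum, most are tagged with mannose 6-phosphate in the Golgi, and they work in the acid lumen of the lysosome. Each removes a particular bond of protein, glycan, sulfated glycan or lipid, and loss of a single hydrolase causes a storage disease in which its substrate accumulates. TFEB and TFE3 are transcription factors that enter the nucleus when lysosomal or energy signalling changes and bind E-box sequences, in particular the CLEAR element, near the starts of lysosomal genes. FNIP1 with FLCN controls their retention in the cytoplasm, ESRRA is a nuclear receptor of energy metabolism genes, and PGC1A is a coactivator that works with it.

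The marker check and the targeted genes were read before the members. Of 10 markers of the HEK 293 lineage 7 or 8 reached 1 TPM in each table, while 7 markers of macrophages and osteoclasts, cells rich in lysosomal enzymes, summed to at most 0.985 TPM in any library. PRKAA1, a catalytic AMPK subunit, was at 2.15 to 3.73 TPM in AMPK KO libraries and 6.03 to 10.6 in AMPK WT libraries. PRKAA2, the other catalytic subunit, was at 2.55 to 4.87 TPM in KO and 3.77 to 7.40 in WT, so its ranges overlapped. Under DMSO limma called PRKAA2 lower in KO (-0.39, SE 0.07, adjusted p = 1.8e-06). ESRRA ranged from 4.44 to 8.46 TPM in ESRRA KO and from 8.01 to 12.7 in ESRRA WT, so these ranges overlapped slightly. TFEB (1.32 to 2.72 TPM in DKO, 1.24 to 3.56 in WT) and TFE3 (7.18 to 10.2 in DKO, 8.82 to 14 in WT) overlapped too. Under DMSO, limma called ESRRA lower in its KO (-0.64, SE 0.10, adjusted p = 1.5e-05) and TFE3 lower in DKO (-0.30, SE 0.06, adjusted p = 2.6e-04), and TFEB was at -0.18 (SE 0.14, adjusted p = 0.307), so the transcript level of TFEB checks no label. FNIP1 stood at 3.45 to 5.27 TPM in TFEB/TFE3 WT libraries, but at 146 to 229 in ESRRA WT and 129 to 179 in siControl, against 221 to 271 in cells rebuilt with WT FNIP1. The libraries labelled ESRRA and siControl therefore differ from those of the AMPK and TFEB/TFE3 tables in FNIP1 level, and how this bears on the members was not tested. Summed over the 44 members, TPM per library ranged from 797 in the FNIP1 table to 1585 in the TFEB/TFE3 table. TPM keep no read counts, so the depth is unknown and precision rests on the 3 libraries.

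In AMPK WT cells under DMSO the members spanned more than 2 orders of magnitude in TPM, a unit per transcript length. GLA, the galactosidase that removes terminal alpha-galactose and is lacking in Fabry disease (chrX:101397791-101408013), was the most abundant at 317 ± 22.4 TPM (SD, n = 3). It was followed by PSAP at 145 ± 12.2, the precursor of the saposins that present lipids to hydrolases, and by PPT1 at 110.1 ± 5.78, which removes palmitate from proteins. CTSD, the aspartic protease cathepsin D, came next at 96.2 ± 8.18. The libraries of GLA, PSAP and PPT1 did not overlap, while PPT1 and CTSD came close (lowest PPT1 library 106.0, highest CTSD library 105.4). NPC2 and CTSL, at 55.4 ± 2.91 and 54.7 ± 0.969, overlapped. LIPA, LGMN, SCPEP1 and CTSC lay between 32.4 and 46 TPM. A block of 13 members from GLB1 (28.7) to NAGLU (13.6) followed, and 12 members from FUCA1 (10.8) to MANBA (3.35) lay below them. At the low end were DPP7 (1.47 ± 0.201), PPT2 (0.941 ± 0.175), IDUA (0.938 ± 0.257) and GALC (0.895 ± 0.0826), of which IDUA did not pass the filter in the AMPK table.

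Members that did not pass were ACP5, CTSK, CTSO, CTSZ and NEU1 in every table, IDUA in the AMPK table, and GALC in the ESRRA and PGC1A tables. ACP5 and CTSK, the phosphatase and cathepsin of bone-resorbing cells, did not reach the filter, and neither did CTSZ. NEU1 (8 copies in the genome used, counting alternative contigs) and CTSO (2 copies) were listed at or near 0, and in several tables their entry lies on an alternative contig. In the AMPK table, 43.4% of the genes with more than 1 copy were at 0 in all libraries, against 9.58% of genes with 1 copy, so the level of NEU1 and CTSO is uncertain. PPT2, with 8 copies, is uncertain for the same reason. By the annotation, 17 members share exon bases with another gene, 12 of them with a protein-coding gene, and the strand of counting is not given in the sources used here. PPT1 shares 1189 bases with CAP1 on the opposite strand, and HEXA, CTSD, IDS, MAN2B1 and TPP1 share stretches with clone-named genes on the same strand, so reads may be shared there. The entry of IDS is a transcript of 1396 bases, and 5 members (GALC, GALNS, MAN2B1, SMPD1 and SUMF1) are represented by different transcripts in different tables, so their levels are compared only within a table.

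Promoter windows bear on the comparison with TFEB/TFE3 DKO cells, so the CLEAR elements and 4 extended E-boxes of members described there are shown. RefSeq promoters of GRCh38.p14, from 250 bases before to 50 after each start, were searched in 32 of the 44 members. The search left out the chromosome that carries ASAH1, CTSB and HGSNAT, so these members and the other genes there were not examined. The rest of the 12 members not searched had no full-length entry in the promoter set used. On either strand, the E-box core CACGTG occurred in 11 of the 32 members (34.4%), against 8.77% of 27305 genes. Its extended form TCACGTG, which contains the core, occurred in 10 (31.2%) against 4.49%, and the CLEAR element, which contains both, in GAA and GALNS (6.25%) against 0.421%. No member window held TGATGCAA, the site of ATF4 and its partners (1.08% of genes), or TCAAGGTCA, the site of ESRRA (0.432%), which says only that these letters are absent there. Capitals mark the CLEAR element in the GAA and GALNS sequences and the extended E-box in the others, each with up to 10 flanking bases that stop at the transcript start, and written 5′ to 3′ on the strand of the gene.
GAA, chr17:80101493-80101522, plus strand, first capital 78 bases before the start: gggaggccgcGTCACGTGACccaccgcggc
GAA, chr17:80101538-80101567, plus strand, first capital 33 bases before the start: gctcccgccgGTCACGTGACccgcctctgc
GALNS, chr16:88857104-88857133, minus strand, first capital 176 bases before the start: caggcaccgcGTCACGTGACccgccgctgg
CTSD, chr11:1763958-1763984, minus strand, first capital 47 bases before the start: cggccgcgccCACGTGAccggtccggg
SCPEP1, chr17:56978093-56978119, plus strand, first capital 28 bases before the start: tccgcctccgTCACGTGatggggcgcc
CTSA, chr20:45891282-45891308, plus strand, first capital 43 bases before the start: aggaagactgTCACGTGgcgccggagt
SUMF1, chr3:4467270-4467292, minus strand, first capital 13 bases before the start: agggctcagcCACGTGAccaacc

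The extended E-box was also present in ARSB, CTSF, DPP7 and NEU1, and ACP5 held the core alone. A match is a description of the letters, not a bound site. GAA encodes acid alpha-glucosidase, which breaks down glycogen. GALNS removes sulfate from keratan and chondroitin sulfate. CTSA is a carboxypeptidase that also stabilises GLB1 and NEU1, SCPEP1 is a related carboxypeptidase, and SUMF1 activates sulfatases in the endoplasmic reticulum.

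With 991 for 16 h, more hydrolases rose than fell in AMPK WT cells. A gene was called when limma's moderated test gave a Benjamini-Hochberg adjusted p under 0.05 over all genes of the table, on log2(TPM + 1). At this threshold 20 of 38 members were higher and 6 lower, beside 41.9% of all 13617 genes tested higher and 26.9% lower. The member median was 0.13 on the log2 scale, beside 0.07 for all genes, so the share of members that rose was close to the background. Median-ratio scaling gave 17 higher and 9 lower and quantile normalization gave the same split. At 4 h 12 of 38 members were higher and 3 lower, beside 27% and 18.9% of all genes (9 higher and 5 lower under median-ratio scaling).

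HGSNAT, the membrane acetyltransferase needed to break down heparan sulfate, had the largest rise. It was at 3.71, 4.21 and 4.30 TPM in the DMSO libraries and 9.83, 9.79 and 9.49 at 16 h. No treated library overlapped a DMSO library, and the log2 difference was 1.08 (SE 0.09, adjusted p = 9.0e-17). Its rise was not yet called at 4 h (0.03) and was 0.84 at 8 h.

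Among the proteases and peptidases, 7 rose and 1 fell among 11 tested. CTSH, a cysteine cathepsin that trims amino termini, was at 20.3, 28.3 and 24.2 TPM with DMSO and 39, 38.7 and 38.7 with 991, without overlap (log2 difference 0.67, SE 0.08, adjusted p = 7.9e-11). TPP1, tripeptidyl peptidase 1, rose by 0.48 (SE 0.05), CTSB by 0.39 (SE 0.04) and CTSF by 0.34 (SE 0.08), all on the log2 scale. LGMN, DPP7 and CTSL also rose, by 0.18, 0.36 and 0.23. CTSC, the dipeptidyl peptidase that activates granule serine proteases, fell by 0.22. CTSA, CTSD and SCPEP1 were at -0.07, -0.04 and 0.04 and were not called.

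Among the glycosidases, 6 rose and 3 fell among 11 tested. HEXA, the alpha subunit of the beta-hexosaminidase that degrades GM2 ganglioside (chr15:72343435-72376473), was at 22.3, 25.5 and 24.6 TPM with DMSO and 43.3, 41.3 and 40.9 with 991. The 2 sets of libraries did not overlap, and the log2 difference was 0.77 (SE 0.05, adjusted p = 3.7e-23). HEXA was also the only member called at 2 h, at 0.20, beside 5.94% of all genes higher and 11.4% lower. It had risen by 0.42 at 4 h and 0.52 at 8 h. GALC, which degrades galactosylceramide, rose by 0.50 (SE 0.07) and MANBA, beta-mannosidase, by 0.46 (SE 0.08). GAA, FUCA1 and GUSB rose by 0.38, 0.37 and 0.11, and MAN2B1 fell by 0.10. HYAL2, a membrane-anchored hyaluronidase, fell from 26.8, 28.3 and 28.9 to 21.1, 21.4 and 21.4 TPM (log2 difference -0.38, SE 0.05, adjusted p = 1.5e-09). NAGLU, another heparan sulfate enzyme, differed by -0.26 (SE 0.09), a fall that was not called without replicate number 2 or 3 of every group (adjusted p = 0.0676 and 0.0771). GLA was not called with 991 in these cells, at 0.07 (SE 0.06).

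Of the 6 sulfatase genes, 2 rose and 1 fell. IDS, which removes sulfate from iduronate, was at 9.17, 9.18 and 8.99 TPM with DMSO and 15.6, 14.8 and 15.7 with 991 (log2 difference 0.69, SE 0.07, adjusted p = 1.1e-14). GALNS rose by 0.26 (SE 0.08), and ARSB, arylsulfatase B, fell by 0.22. Of the 8 lipid genes, 4 rose and 1 fell: NPC2, the luminal carrier of cholesterol, by 0.26, PLA2G15, a lysosomal phospholipase, by 0.25, PSAP by 0.17 and ASAH1, acid ceramidase, by 0.13, while PPT1 fell by 0.21. ACP2, the lysosomal acid phosphatase, was not called (-0.19), nor were LIPA (0.07), SMPD1 (0.08), PPT2 (-0.01), ARSA (-0.19), SGSH (-0.07), SUMF1 (0.13) and GLB1 (0.01).

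**Figure D1:**
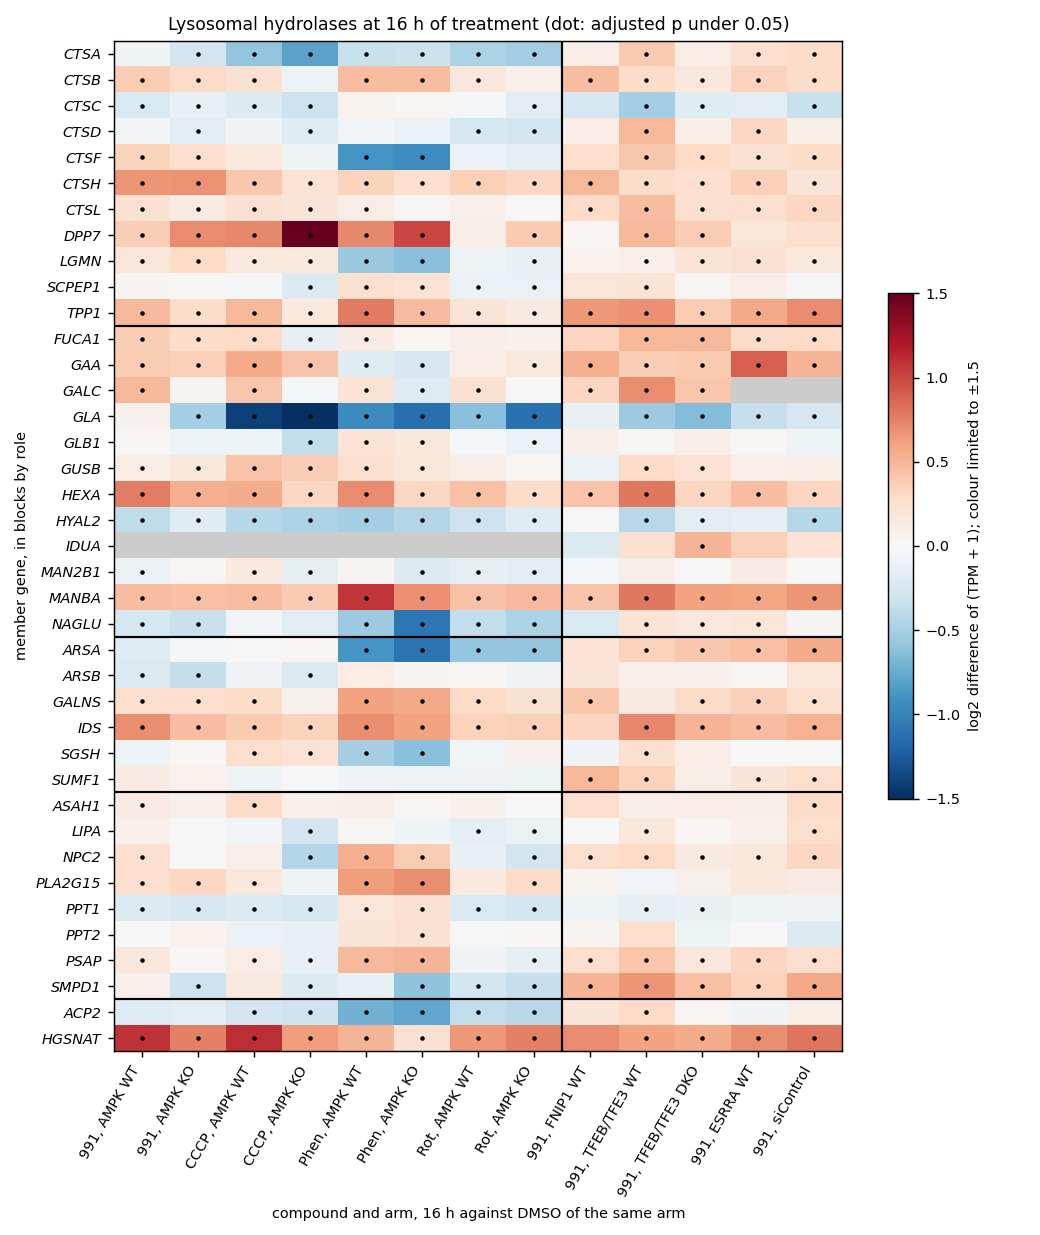
Log2 difference of TPM + 1 at 16 h against DMSO of the same arm (colour), for each tested member (rows, in blocks of proteases, glycosidases, sulfatases, lipid genes, and the phosphatase with the acetyltransferase) and each compound and arm (columns); a dot marks an adjusted p under 0.05 and grey marks a member that did not pass the filter. HEXA, MANBA, TPP1 and HGSNAT are red in each column, and GLA is blue in all but the column for 991 in AMPK WT cells, where it is at 0.07.

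The 3 mitochondrial poisons gave different hydrolase patterns in the same AMPK WT cells. At 16 h, CCCP left 20 of 38 members higher and 6 lower, beside 44.1% and 26.6% of all genes. Phen left 19 of 38 members higher and 10 lower, beside 45.3% and 34.9%. Rot left 9 of 38 members higher and 12 lower, beside 36.2% and 29.2%. The member medians were 0.15, 0.11 and -0.03, beside 0.09, 0.07 and 0.03 for all genes. For CCCP, median-ratio scaling gave 16 higher and 12 lower and quantile normalization 16 higher and 10 lower. By the labels, 3 WT libraries placed with CCCP at 4 h carry wording that names 16 h, so the CCCP value at 4 h rests on their library codes and tags. All 4 compounds were read against the same 3 DMSO libraries, so their counts are not independent. At 4 h the members called higher and lower numbered 9 and 10 with CCCP (28.7% and 35.3% of all genes), 7 and 11 with Phen (28.3% and 37.5%), and 6 and 10 with Rot (30.6% and 28.5%). The Phen split at 4 h was 9 higher and 10 lower after median-ratio scaling and 10 higher and 8 lower after quantile normalization.

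Counted over the 4 compounds at 16 h, 9 of 38 members were called higher with every compound, beside 25.3% of all genes, a share near the background: CTSB, CTSH, GALC, GALNS, HEXA, HGSNAT, IDS, MANBA and TPP1. HYAL2 was called lower with all 4, as were 14.7% of all genes. A further 7 members rose with some compounds and fell with others: CTSF, GAA, LGMN, MAN2B1, PPT1, SCPEP1 and SGSH. PPT2 and SUMF1 were called with none. For neither of these classes was the share of all genes computed, so they are not read as a trait of the members.

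GLA fell with each of the poisons. From 292, 335 and 323 TPM with DMSO it reached 117, 120.3 and 119.9 with CCCP, 162, 161 and 163 with Phen and 206, 203 and 204 with Rot. With 991 it stood at 332, 335 and 329, inside the range of the DMSO libraries. The log2 differences were -1.40 (SE 0.06, adjusted p = 4.9e-35) with CCCP, -0.96 (SE 0.06) with Phen and -0.63 (SE 0.06) with Rot. With CCCP the fall was not called at 4 h (-0.08) and was -0.52 at 8 h. The direct contrasts at 16 h gave a GLA log2 difference of -1.47 (SE 0.06) for CCCP minus 991, and for Rot minus CCCP of 0.77 (SE 0.06).

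MANBA and TPP1, which rose with every compound, rose more with Phen than with the others. MANBA went from 3.73, 2.91 and 3.42 to 9.42, 7.59 and 7.57 TPM (log2 difference 1.08, SE 0.08, adjusted p = 1.3e-21). TPP1 (chr11:6612766-6619461) went from 19.1, 19.5 and 19.4 to 33.9, 34.7 and 33.4 TPM (0.78, SE 0.05, adjusted p = 3.9e-22). In both members all Phen libraries lay above all DMSO libraries. In the direct contrasts, each called, MANBA was higher with Phen by 0.61 than with 991, 0.62 than with CCCP and 0.64 than with Rot. For TPP1 these differences were 0.30, 0.29 and 0.59. DPP7, a serine dipeptidyl peptidase, rose by 0.72 (SE 0.12) with Phen and by 0.73 (SE 0.12) with CCCP, and was at 0.09 with Rot, not called.

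The falls with Phen took in a cysteine cathepsin, a sulfatase, a phosphatase and legumain. CTSF was at 7.37, 7.55 and 6.85 TPM with DMSO and 3.40, 3.63 and 3.30 with Phen (log2 difference -0.89, SE 0.08, adjusted p = 8.4e-18), while with 991 it had risen. ARSA, the arylsulfatase of sulfatide breakdown, went from 5.27, 4.79 and 5.07 to 2.43, 2.18 and 2.24 TPM (-0.88, SE 0.10, adjusted p = 2.5e-13). LGMN, the asparaginyl protease that processes cathepsins, went from 38.8, 41.9 and 39.9 to 27.2, 26.4 and 27.2 TPM (log2 difference -0.56). In each of these members the Phen and DMSO libraries did not overlap. ACP2 fell by 0.72 on the log2 scale, SGSH by 0.50 and NAGLU by 0.55.

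Direct contrasts between compounds at 16 h in AMPK WT cells gave 6 pairs. Phen minus 991 called 14 of 38 members higher and 17 lower (36.7% and 34.3% of all genes), and Phen minus CCCP 17 and 15 (35.9% and 33.8%). Between both complex I inhibitors, Phen minus Rot, the counts were 17 higher and 9 lower (40.1% and 29.3%). NPC2 led that contrast at 0.65 (SE 0.05), from 52.5, 48.7 and 52.7 TPM with Rot to 81.6, 79.9 and 81.7 with Phen, and CTSF was lowest at -0.81 (SE 0.08). Doses are not given, so the compounds are compared as used.

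In the direct contrasts of Rot with 991 and with CCCP, more members were called lower than higher. Rot minus 991 called 2 of 38 members higher and 21 lower, beside 8.99% and 18.9% of all genes, with a member median of -0.21 beside -0.03. In that contrast 9 of 11 proteases were lower. Rot minus CCCP called 2 higher and 19 lower (9.8% and 23.7%), or 4 higher and 13 lower with median-ratio scaling and 5 higher and 16 lower with quantile normalization. CCCP minus 991 called 8 higher and 9 lower (17.7% and 13.6%), or 6 higher and 11 lower with median-ratio scaling, and 11 and 10 in all without replicate number 2 and 3. GAA was at 23.1, 25.3 and 24.7 TPM with Rot, 36.8, 33.9 and 29.98 with CCCP, 28.6, 30.3 and 29.7 with 991 and 19.99, 20.4 and 19 with Phen, beside 21, 23.7 and 23 with DMSO. The CCCP libraries of GAA lay above those with Rot, Phen and DMSO and overlapped those with 991, the Phen libraries lay below all DMSO libraries, and the Rot and DMSO libraries overlapped.

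**Figure D2:**
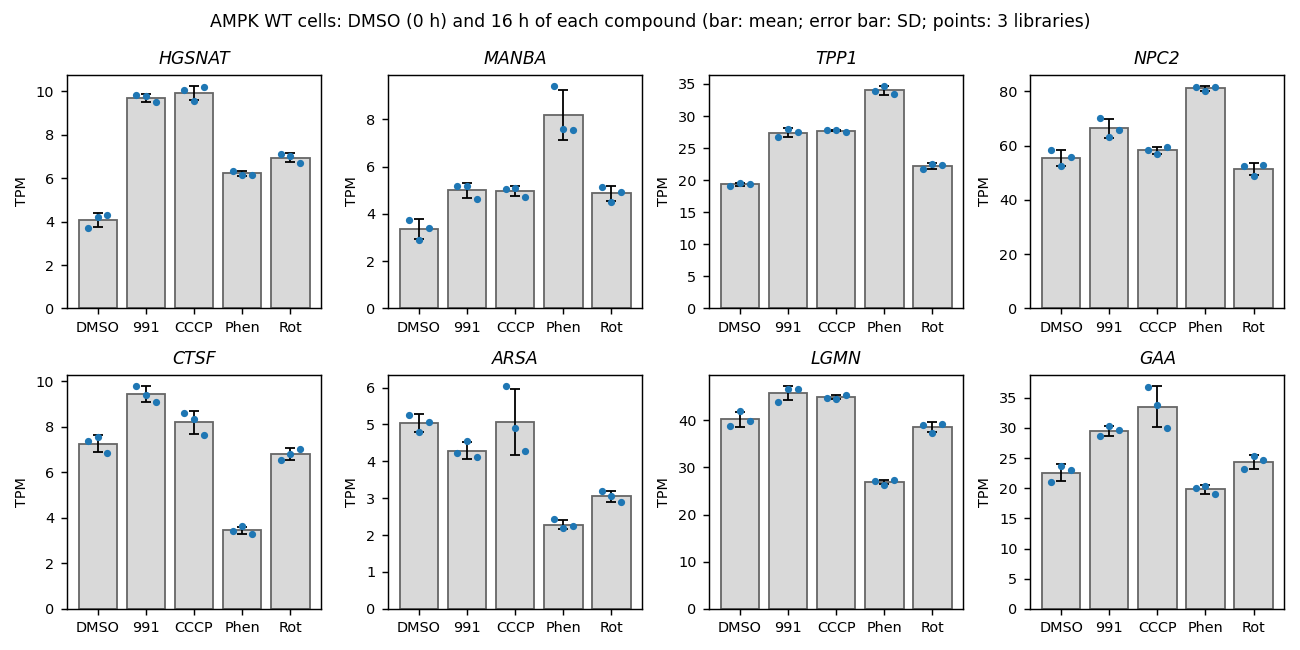
TPM of 8 members in AMPK WT cells with DMSO (0 h) and after 16 h of 991, CCCP, Phen or Rot; bars are means, error bars are SD and points are the 3 libraries. HGSNAT is highest with 991 and CCCP, MANBA, TPP1 and NPC2 with Phen, while CTSF, ARSA and LGMN are lowest with Phen and GAA is highest with CCCP.

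Without compound, AMPK KO cells differed from AMPK WT cells in 15 members, 11 higher and 4 lower of 38, beside 16.2% and 22.7% of all genes. CTSL, a cysteine cathepsin, was at 55.2, 53.6 and 55.3 TPM in WT and 72.1, 69.6 and 70.6 in KO (log2 difference 0.37, SE 0.04, adjusted p = 3.0e-12). The KO libraries lay above all WT libraries. HYAL2, CTSC and SGSH were higher by 0.30, 0.29 and 0.29. ARSA was lower (-0.53, SE 0.10), as were GLA (-0.31, SE 0.06), CTSF (-0.24, SE 0.08) and ASAH1 (-0.17, SE 0.06). ASAH1 libraries overlapped between the arms, and its call was lost without replicate number 3 (adjusted p = 0.231), as that of CTSF was without number 2 (adjusted p = 0.0575).

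Of the 20 members that rose with 991 in AMPK WT cells, 16 also rose in AMPK KO cells, beside 72.6% of all 5709 genes higher in WT, and the exceptions were ASAH1, GALC, NPC2 and PSAP. At 16 h, 16 of 38 members were higher and 9 lower there, beside 34.8% and 27.1% of all genes. The difference of the 2 responses, KO minus WT, was called for 0 members in the positive direction and 5 in the negative, beside 4.96% and 10% of all genes. These 5 were GLA, GALC, SMPD1, NPC2 and HEXA. Leaving out replicate number 2 or 3 of every group reduced the 5 to 3 or 1, median-ratio scaling gave 2 higher and 3 lower, and quantile normalization 2 higher and 4 lower.

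GLA showed the largest of these differences. With 991 it went from 238, 266 and 259 to 178, 169.7 and 188 TPM in KO cells, a log2 difference of -0.51 (SE 0.06), against 0.07 in WT. The response difference was -0.58 (SE 0.08, adjusted p = 6.9e-08), and it was -0.32 at 8 h. GALC went from 0.968, 0.979 and 1.08 to 1.10, 1.08 and 1.03 TPM in KO cells, where the groups overlapped, and from 0.928, 0.956 and 0.801 to 1.78, 1.66 and 1.61 in WT, where they did not. Its response difference was -0.46 (SE 0.10, adjusted p = 4.8e-04). SMPD1, acid sphingomyelinase, differed by -0.39 (SE 0.12), NPC2 by -0.26 (SE 0.07) and HEXA by -0.23 (SE 0.07). GLA kept its call without any replicate number. HEXA lost it without each (adjusted p = 0.0753, 0.0638 and 0.144), GALC without number 3 (0.0659), NPC2 without 1 or 3, and SMPD1 without 2 or 3.

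HEXA still rose in KO cells, from 24.5, 25.5 and 26.3 to 36.2, 39.1 and 37.3 TPM, without overlap. HGSNAT rose there by 0.75 (SE 0.09) and CTSH by 0.67 (SE 0.08). For HGSNAT the response difference was -0.33 (SE 0.13, adjusted p = 0.0798) and did not pass the threshold. DPP7 rose by 0.71 (SE 0.12) in KO cells and by 0.36 in WT (adjusted p of the difference 0.19).

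Response differences between the arms were called in more members with CCCP than with the other compounds. In AMPK KO cells at 16 h, 12 of 38 members were higher and 16 lower, beside 39.6% and 29.3% of all genes. The KO minus WT response was called in 16 members, 1 higher and 15 lower, beside 10.5% and 17.7% of all genes, with a member median of -0.18 beside -0.04. Without replicate number 3 the count was 9. By role, 4 proteases, 6 glycosidases, 5 lipid genes and HGSNAT were among the 16, and none of the 6 sulfatase genes was. The calls of ASAH1, GALC, LIPA, HGSNAT, PSAP, SCPEP1 and SMPD1 were the 7 lost without number 3, with adjusted p from 0.0657 to 0.173.

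GLA fell furthest with CCCP in KO cells, from 238, 266 and 259 to 52.5, 55.6 and 52 TPM (log2 difference -2.23, SE 0.06, adjusted p = 1.1e-47). Its response difference was -0.83 (SE 0.08, adjusted p = 1.3e-13). NPC2 went from 59, 46 and 50.4 to 38.4, 38 and 36.5 TPM in KO cells and from 58.2, 52.4 and 55.6 to 58.3, 57.1 and 59.5 in WT (response difference -0.51, SE 0.07, adjusted p = 1.0e-07). In KO cells the 2 sets did not overlap, and in WT cells they did. HGSNAT rose in both arms, by 1.11 in WT and 0.63 in KO. FUCA1, alpha-fucosidase, rose in WT (0.29) and fell in KO (-0.13). MAN2B1, alpha-mannosidase, and PSAP likewise passed in opposite directions, at 0.15 and 0.12 in WT and -0.14 and -0.12 in KO. DPP7 was the exception in sign: it went from 0.992, 1.37 and 0.947 to 5.52, 4.80 and 4.66 TPM in KO cells and from 1.70, 1.33 and 1.39 to 3.32, 3.36 and 2.61 in WT (response difference 0.79, SE 0.18, adjusted p = 3.7e-04).

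With Phen, 17 of 38 members were higher and 13 lower in AMPK KO cells (41.2% and 37.7% of all genes). The responses of 7 members were lower in KO than in WT and 0 higher, beside 10.5% and 3.38% of all genes, and this count was 2 without replicate number 2 and 2 without replicate number 3. NAGLU went from 13.5, 12.7 and 13.8 to 5.24, 6.18 and 5.83 TPM in KO cells and from 13, 14.2 and 13.6 to 9.19, 9.08 and 8.66 in WT (response difference -0.54, SE 0.12, adjusted p = 0.0011). HEXA and MANBA, which rose in both arms, rose less in KO (response differences -0.40 and -0.39). HEXA kept its call without any replicate number, whereas NAGLU lost it without number 3 (adjusted p = 0.0878). SMPD1, GALC, TPP1 and MAN2B1 had differences of -0.49, -0.39, -0.30 and -0.25. CTSF and ARSA fell in KO cells as well, to -0.95 and -1.11 on the log2 scale, with response differences of -0.05 (SE 0.11) and -0.23 (SE 0.13) that did not pass.

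With Rot, 10 of 38 members were higher and 17 lower in KO cells (35.3% and 27.9% of all genes). Only GLA differed between the arms in response, at -0.49 (SE 0.08, adjusted p = 3.6e-05), among 1.01% of all genes called higher and 0.962% lower. This call was lost without replicate number 2 or 3, with adjusted p = 0.0563 and 0.0523. In KO cells GLA reached 122, 110.4 and 118 TPM with Rot. GLA was thus lower in KO than in WT cells under DMSO and its response to 991, CCCP and Rot differed in the same direction, while with Phen the difference was -0.17 (SE 0.08, adjusted p = 0.146). These comparisons share their DMSO libraries.

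**Figure D3:**
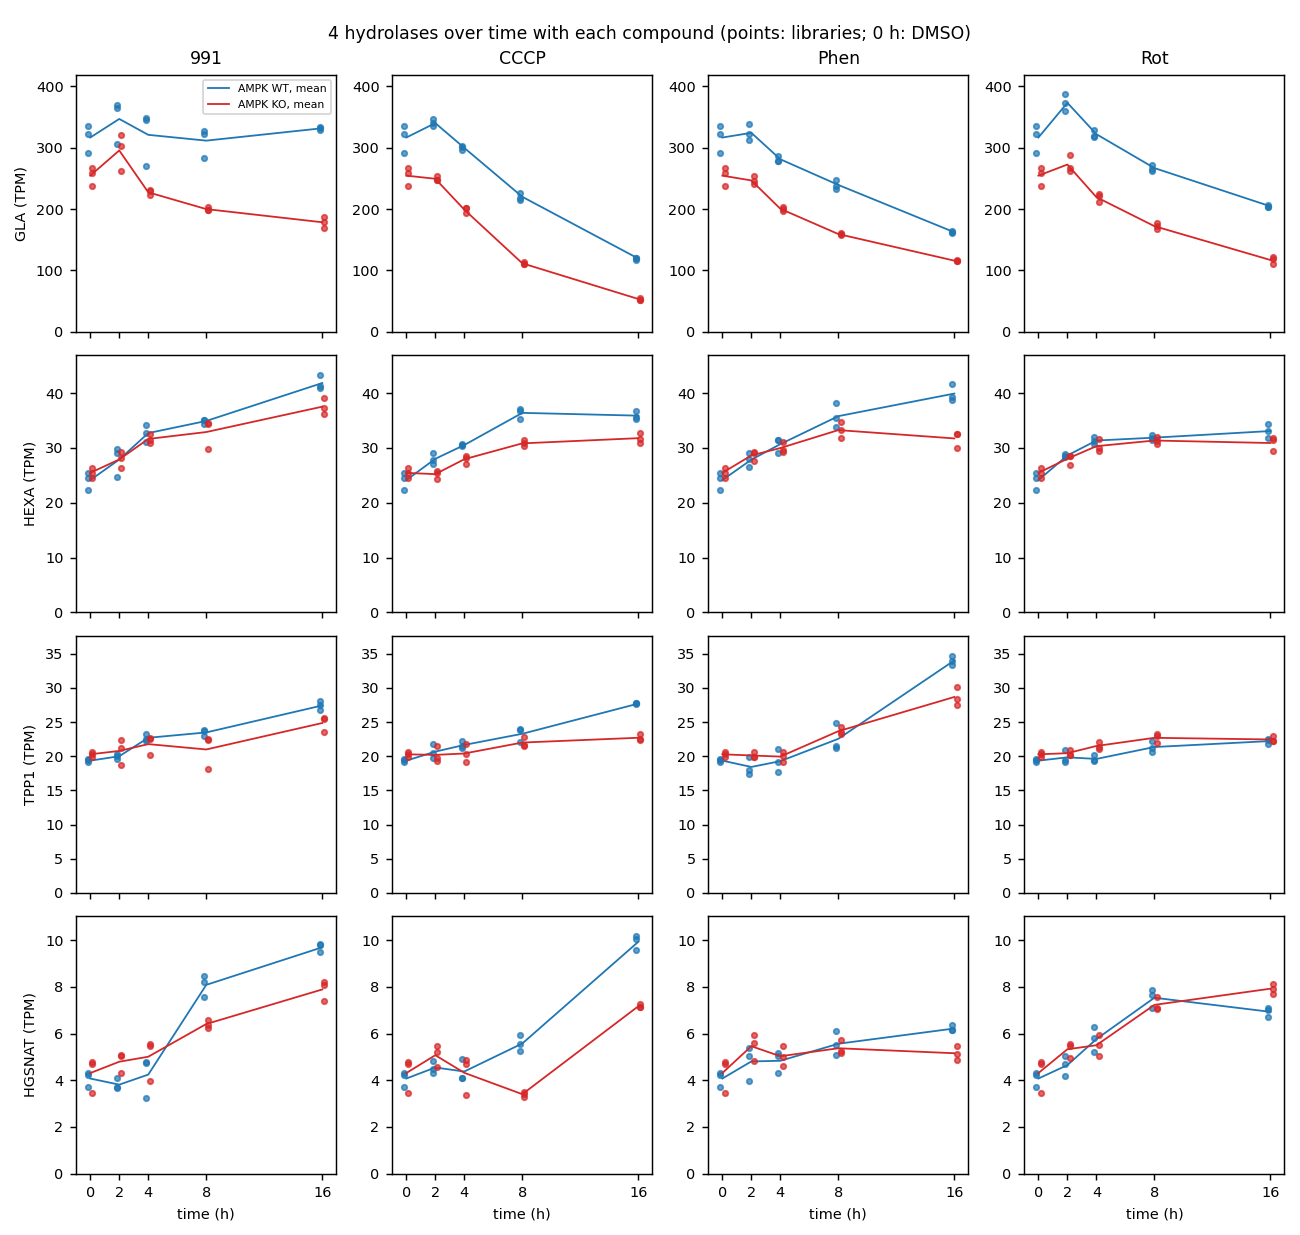
TPM of GLA, HEXA, TPP1 and HGSNAT (rows) over 16 h with each compound (columns) in AMPK WT (blue) and AMPK KO (red) cells; points are libraries, lines join group means, and 0 h is DMSO. GLA declines with CCCP, Phen and Rot in both arms and with 991 in AMPK KO cells, while HEXA is higher at 16 h than at 0 h in every panel.

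Cells lacking TFEB and TFE3 did not have uniformly lower hydrolase transcripts. Under DMSO, 17 of 39 members were higher in DKO than in WT and 8 were lower, beside 37.6% and 13.7% of all genes, and the member median was 0.07 beside 0.11. Rescaling moved the median of all genes by about 0.1, and the split became 12 higher and 14 lower with median-ratio scaling and 11 higher and 13 lower with quantile normalization, so differences near 0.1 on the log2 scale change sign with the scaling. The largest shifts of this kind in the comparisons used were in the FNIP1 table, at -0.35 for 991 in SA5 cells, 0.30 for SA5 minus WT under DMSO and -0.28 for the difference of their 991 responses, and outside that table the largest was -0.16 for 991 in siControl cells.

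GLA was the clearest member lowered in DKO cells, at 595, 547 and 598 TPM in WT and 229, 214 and 226 in DKO, a log2 difference of -1.37 (SE 0.04, adjusted p = 3.2e-22). CTSC was at 35.9, 32.6 and 35.4 and 21.5, 21.3 and 19 TPM (-0.72, SE 0.06, adjusted p = 7.7e-11). GAA was at 22.9, 26.9 and 25.4 and 17.3, 16.5 and 16.7 TPM (-0.55, SE 0.05, adjusted p = 2.5e-09). In each, all DKO libraries lay below all WT libraries. LIPA, lysosomal acid lipase, was also lower (-0.35, SE 0.04).

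Other members were higher in DKO cells before any compound. CTSD (chr11:1752752-1763992) was at 57, 56.6 and 63 TPM in WT and 94.1, 88.6 and 94.8 in DKO (0.64, SE 0.05, adjusted p = 8.6e-12). SUMF1 was at 3.97, 3.85 and 3.87 and 5.57, 7.15 and 6.58 TPM (0.60, SE 0.07, adjusted p = 4.6e-08), and SMPD1 differed by 0.66 (SE 0.09). HEXA was at 26.8, 28 and 25.4 and 39.5, 43.9 and 37.1 TPM (0.57, SE 0.05, adjusted p = 7.4e-11). For these 4 members the DKO libraries lay above all WT libraries. Of the members whose sequences are shown above, CTSD, CTSA, SUMF1 and GALNS were higher in DKO (0.64, 0.46, 0.60 and 0.51), GAA was lower, and SCPEP1 was at -0.05, not called. Of all genes, 37.6% were higher and 13.7% lower. The sequences shown for the extended E-box were picked because their members are described here. ARSB, CTSF and DPP7 hold it too and are not given here, so the split is not read as a trait of the motif.

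With 991 for 16 h, 27 of 39 members were higher and 4 lower in TFEB/TFE3 WT cells, beside 41.1% and 17.9% of all genes, with a member median of 0.28 beside 0.13. In DKO cells 22 of 39 members were higher and 4 lower, beside 35.7% and 12.5%, with a median of 0.17 beside 0.11. Median-ratio scaling gave 21 higher and 6 lower in WT and 13 higher and 6 lower in DKO. Quantile normalization gave 22 higher and 5 lower in WT and 16 higher and 3 lower in DKO. The response difference, DKO minus WT, was called in 9 members, 2 higher and 7 lower, beside 5.74% and 6.91% of all genes. The count was 2 without replicate number 1 and 5 without number 3, and quantile normalization gave 1 higher and 9 lower.

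HEXA had the largest of these differences. In WT cells it reached 46.9, 49.6 and 44.5 TPM at 16 h and in DKO cells 48.3, 49.9 and 52.3, so the treated levels of the arms overlapped although the starting levels did not. Its rise was 0.79 in WT and 0.32 in DKO, a difference of -0.47 (SE 0.07, adjusted p = 2.4e-05). CTSD rose in WT, to 80.8, 85.8 and 83.1 TPM (log2 difference 0.49), and was at 95, 106 and 94.5 in DKO, where the change of 0.09 was not called. The response difference of CTSD was -0.41 (SE 0.07, adjusted p = 2.0e-04).

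TPP1, CTSL, PSAP, ACP2 and SCPEP1 also rose less in DKO, with response differences of -0.31 (SE 0.07), -0.23 (SE 0.06), -0.24 (SE 0.05), -0.27 (SE 0.08) and -0.20 (SE 0.07). TPP1, CTSL and PSAP passed in DKO as well, at 0.38, 0.24 and 0.17. For 6 of these 7 members the DKO level under DMSO was already the higher, by 0.57 for HEXA, 0.64 for CTSD, 0.45 for PSAP, 0.43 for TPP1, 0.28 for CTSL and 0.15 for ACP2, the last being close to the shift of all genes by scaling. The same DMSO libraries enter both the starting difference and the response difference, and whether the high start limited the rise was not tested. CTSC fell in WT (-0.51) and less in DKO (-0.18), a difference of 0.33 (SE 0.09, adjusted p = 0.0115). LGMN rose more in DKO, by 0.13 (SE 0.05), at an adjusted p = 0.0495. HEXA and CTSD kept their calls without any replicate number. TPP1 and PSAP lost theirs without number 1 (adjusted p = 0.0858 and 0.0579), CTSL without 1 or 2, CTSC without 1 or 3, and ACP2, SCPEP1 and LGMN without each. The fall of CTSC in DKO was itself not called without number 1 or 2.

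Several members rose in both arms without a called response difference. GAA, with a pair of CLEAR elements in its promoter window, rose to 33.5, 33.8 and 30.9 TPM in WT and 21.4, 24.2 and 21.6 in DKO, by 0.37 (SE 0.05) and 0.39 (SE 0.05). Its response difference was 0.02 (SE 0.08), with adjusted p = 0.93. The DKO libraries stayed below the WT libraries throughout. HGSNAT rose by 0.60 and 0.56, MANBA by 0.79 and 0.60, FUCA1 by 0.50 and 0.49. GLA fell in both, by 0.55 and 0.64. The response difference at 16 h was called for 12.7% of all genes and 23.1% of the 39 tested members. Of the 9 tested members with the extended E-box, CTSD and SCPEP1 had called response differences, given above, and GAA and 6 others did not. Those 6 were at 0.14 (SE 0.14) for GALNS, -0.27 (SE 0.09) for CTSA, -0.25 (SE 0.10) for SUMF1, -0.01 (SE 0.10) for ARSB, -0.10 (SE 0.12) for CTSF and -0.10 (SE 0.18) for DPP7.

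Fewer response differences were called at 4 h. At 4 h, 17 members were called higher and 5 lower in WT (29% and 17.1% of all genes; 12 higher and 9 lower after median-ratio scaling). In DKO the counts were 17 and 2 (22.2% and 14.4%; 11 higher and 3 lower after median-ratio scaling). The response difference at 4 h was called for PLA2G15, at 0.28, and for SUMF1, at -0.51, beside 1.88% and 2.79% of all genes. SUMF1 had reached 6.45, 6.34 and 6.97 TPM in WT at 4 h and stood at 6.71, 7.48 and 6.92 in DKO. At 24 h the response difference was called in 3 members higher and 7 lower, beside 4.98% and 9.71% of all genes. HEXA, CTSD, TPP1, CTSL and PSAP were again lower, at -0.36, -0.25, -0.30, -0.22 and -0.29, with IDS at -0.39 and SUMF1 at -0.40. The 3 higher were HYAL2, CTSC and LGMN, at 0.36, 0.31 and 0.14.

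**Figure D4:**
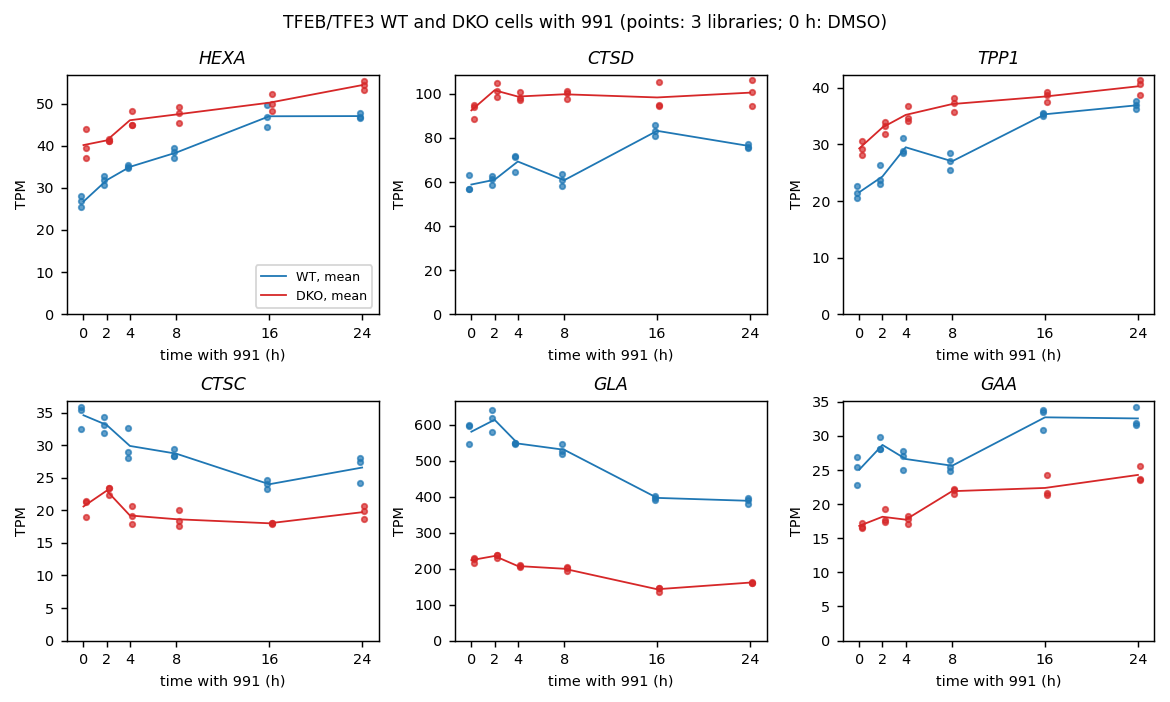
TPM of 6 members over 24 h with 991 in TFEB/TFE3 WT (blue) and DKO (red) cells; points are the 3 libraries of a group, lines join means and 0 h is DMSO. At 0 h HEXA, CTSD and TPP1 are higher and GLA, CTSC and GAA lower in DKO, and GAA is above its 0 h level at 16 and 24 h in both arms.

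Among the cells rebuilt with FNIP1, 2 SA5 libraries stood apart before any test. Replicate 1 of SA5 with DMSO had a mean correlation of 0.891 with the other libraries of its group, and replicate 1 of SA5 with 991 at 8 h had 0.966. In the former FNIP1 was at 5.47 TPM, so SA5 values are given with and without it. In WT FNIP1 cells, 13 of 39 members were higher and 0 lower at 16 h with 991, beside 11.6% and 4.87% of all genes, with a median of 0.19 beside 0.07. This count moved from 13 to 21, 3 and 2 when replicate number 1, 2 or 3 was left out of the table, and to 24 when only these 2 groups were fitted. Median-ratio scaling gave 9 higher and 2 lower.

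GAA was at 13.4, 12.4 and 12.7 TPM with DMSO and 21.5, 16.1 and 19.9 with 991 in WT FNIP1 cells (0.53, SE 0.08, adjusted p = 8.6e-05). SUMF1 went from 5.48, 5.12 and 5.93 to 8.79, 7.33 and 8.56 TPM (0.50, SE 0.08, adjusted p = 1.3e-04). TPP1 went from 18.5, 18.6 and 17 to 28.2, 28.6 and 30.2 TPM (0.66, SE 0.22, adjusted p = 0.0465). The groups did not overlap in any of the 3 members. TPP1 lost its call without replicate number 2 or 3 (adjusted p = 0.272 and 0.475), GAA with median-ratio scaling (0.0702) and SUMF1 with quantile normalization (0.0656).

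In SA5 cells 22 of 39 members were higher and 0 lower at 16 h, beside 39.2% and 5.76%, with a member median of 0.33 beside 0.36 for all genes. Without the outlying DMSO library 17 members were called and the medians were 0.17 and 0.10, and without both outlying libraries 22 were called. Leaving out replicate number 2 or 3 gave 14, and fitting only these 2 groups gave 0. Median-ratio scaling gave 5 higher and 6 lower and quantile normalization 8 higher and 3 lower, so the balance of directions in SA5 cells changes with the scaling. TPP1 was at 5.79, 17 and 14.4 TPM with DMSO and 25.3, 22.3 and 25.1 with 991. Its log2 difference was 1.03, and 0.60 (adjusted p = 0.00216) without the outlying DMSO library. HGSNAT had 1.17 and 0.68 (adjusted p = 9.9e-04) in the same fits.

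The response difference, SA5 minus WT, was called for 0 members by limma at 16 h, beside 0.00751% of all genes higher and 0.00751% lower. The median SE of the members was 0.15 there, beside 0.08 for KO minus WT with 991 in the AMPK table, so smaller differences could be missed. At an unadjusted p under 0.05 there was 1 member, NPC2 (log2 difference -0.29, SE 0.13, adjusted p = 0.353), which was at -0.16 without the outlying DMSO library. Without the outlying DMSO library 0 members passed, and without both outlying libraries 0. Under DMSO 0 members were higher and 5 lower in SA5, beside 1.69% and 8.64% of all genes. Here the count was 2 without the outlying DMSO library and 8 without both, and the split was 3 higher and 0 lower under median-ratio scaling and 2 higher and 2 lower under quantile normalization. SCPEP1 was at 38.6, 35.4 and 38.1 TPM in WT and 13, 28.7 and 33.4 in SA5, with a log2 difference of -0.66, or -0.26 (adjusted p = 0.115) without the outlying library.

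In ESRRA WT cells 21 of 38 members were higher and 1 lower with 991 at 16 h, beside 31.2% and 15% of all genes (17 higher and 4 lower with median-ratio scaling and 16 higher and 3 lower with quantile normalization). In ESRRA KO cells the counts were 17 and 4, beside 31.5% and 12.9% (13 higher and 7 lower with median-ratio scaling and 12 higher and 6 lower with quantile normalization). Their responses differed in 2 members, GAA and NAGLU, both lower in KO, beside 1.31% of all genes higher and 1.53% lower. GAA went from 13.5, 16 and 13.3 to 26.1, 28 and 28 TPM in WT and from 17.2, 19 and 20.3 to 24.1, 25.3 and 23.3 in KO. No treated library overlapped a DMSO library in either arm. The rise was 0.90 (SE 0.06) in WT and 0.35 (SE 0.06) in KO, a difference of -0.54 (SE 0.09, adjusted p = 6.0e-04). Without replicate number 3 it was -0.40 with adjusted p = 0.103. The KO libraries of GAA lay above all WT libraries under DMSO and below them with 991. The same DMSO libraries enter the starting difference and the response difference, and whether the higher start in KO limited the rise was not tested. NAGLU differed by -0.29 (SE 0.07, adjusted p = 0.03), a call lost in each fit without 1 replicate number.

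Under DMSO, 9 members were higher and 5 lower in ESRRA KO than in WT, beside 6.71% and 14.7% of all genes (12 higher and 2 lower with either rescaling). GAA was the highest of them, at 0.37 (SE 0.06), followed by HGSNAT at 0.31 (SE 0.07) and CTSH at 0.30 (SE 0.08). ACP2, CTSA, SCPEP1 and CTSL were lower, at -0.23, -0.19, -0.19 and -0.15. The count of 14 was 7, 7 and 6 without replicate number 1, 2 and 3. HGSNAT and GAA were not among the calls lost there, and CTSH lost its call without number 1 or 3. ACP2 and CTSL lost theirs with either rescaling and without each replicate number, CTSA without number 1 and SCPEP1 without number 2.

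Several hydrolases differed between siPGC1A and siControl cells without compound. The transcript of PGC1A, PPARGC1A, was at 0.015 to 0.107 TPM in siPGC1A and 0.254 to 0.484 in siControl, low in both. Under DMSO 8 members were higher and 9 lower in siPGC1A, beside 14.3% and 9.89% of all genes (6 higher and 12 lower with quantile normalization), and 11 in all were called without replicate number 2. ARSB was at 2.87, 2.61 and 2.93 TPM in siControl and 1.37, 1.22 and 1.48 in siPGC1A (-0.69, SE 0.09, adjusted p = 4.5e-07). ASAH1 was at 11.8, 12.1 and 12.3 and 7.69, 6.96 and 7.64 TPM (-0.63, SE 0.07, adjusted p = 4.3e-08). GAA was at 15.3, 16.7 and 14.2 and 9.74, 9.16 and 10.6 TPM (-0.60, SE 0.07, adjusted p = 3.3e-07). In these 3 members the arms did not overlap. SMPD1, GALNS and LGMN were higher, by 0.47, 0.38 and 0.32. FNIP1 was also higher in siPGC1A (223 to 290 TPM, against 129 to 179), and its part in these differences was not tested.

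With 991 at 16 h, 21 of 38 members were higher and 3 lower in siControl, beside 44.6% and 12.4% of all genes, and 21 and 2 in siPGC1A, beside 39.2% and 12.7%. Median-ratio scaling gave 8 higher and 8 lower in siControl and 10 higher and 7 lower in siPGC1A, quantile normalization 16 higher and 5 lower and 15 higher and 4 lower. Without replicate number 2 the 23 calls in siPGC1A became 15. The response difference was called by limma for 0 members, beside 0.0149% and 0.187% of all genes, and 4 members had an unadjusted p under 0.05. The lowest p was that of NAGLU (0.21, SE 0.08, adjusted p = 0.368). HGSNAT went from 7.57, 5.68 and 5.35 to 11.1, 11.6 and 11.7 TPM in siControl and from 6.80, 6.38 and 5.08 to 9.98, 10.3 and 10.2 in siPGC1A. In both arms all treated libraries lay above all DMSO libraries.

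The 5 control arms each had their own DMSO libraries, which allows the 991 response at 16 h to be set side by side. Of 37 members tested in all 5, 9 were called higher in every arm, beside 6.36% of the 12865 genes tested in all 5: CTSB, CTSH, CTSL, GAA, HEXA, MANBA, NPC2, PSAP and TPP1. Another 8 were called higher in 4 arms, and 19 had a positive log2 difference in all 5, or 15 with median-ratio scaling. The shares of all genes for these further counts were not computed. TPP1 ranged from 0.48 to 0.71, GAA from 0.37 to 0.90, MANBA from 0.43 to 0.79 and HEXA from 0.32 to 0.79. HGSNAT ranged from 0.60 to 1.08 and was called in 4 arms, the FNIP1 arm being the exception. The number called in every arm was 9 with quantile normalization and 7 with a pseudocount of 0.1 or no filter on low values. It was 12 without replicate number 1 or with only the groups compared. Without replicate number 2 or 3 only GAA was left. With median-ratio scaling it was 3, namely HGSNAT, MANBA and TPP1, and GAA was not among them.

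No member was called lower in more than 3 of these arms. CTSC, GLA and HYAL2 were each called lower in 3, and CTSC and PPT1 had negative log2 differences in all 5. Shares of all genes were not computed for these counts either. CTSC ranged from -0.51 to -0.17 and PPT1 from -0.21 to -0.05. NAGLU was called lower in AMPK WT and higher in the TFEB/TFE3 and ESRRA control arms. CTSD rose in the TFEB/TFE3 and ESRRA arms and was at -0.04 in AMPK WT. GLB1 and PPT2 were called in no arm. The arms were normalized in separate tables, so these are values side by side and their differences were not tested.

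**Figure D5:**
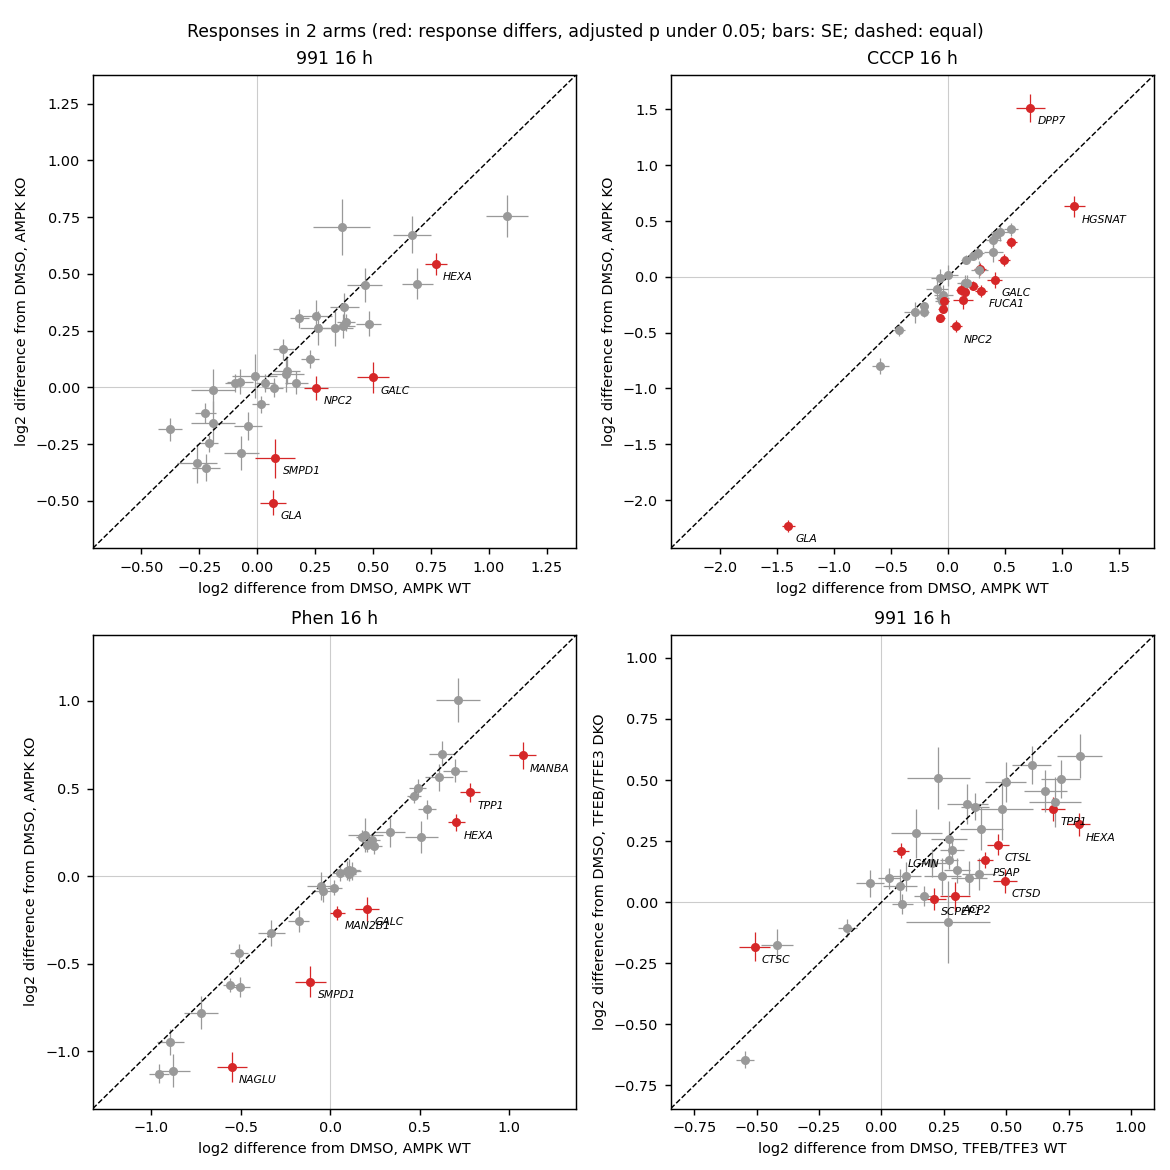
Log2 differences from DMSO at 16 h in the control arm (horizontal) and in the AMPK KO or TFEB/TFE3 DKO arm (vertical), 1 point per member with SE bars; red members had a response difference with adjusted p under 0.05 and the dashed line marks equal responses. In the CCCP panel only members whose responses differ by more than 0.4 are named. Most red members lie below the line, with DPP7 above it for CCCP, and LGMN and CTSC above it for TFEB/TFE3.

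Hydrolases and luminal proteins outside the 44 were counted for comparison, with 23 of 30 passing the filter. Their list was chosen with earlier results of these data known, so its counts are a description and not a test. They were not repeated with other scaling. With 991 at 16 h, 17 of 23 higher and 1 lower were called in AMPK WT cells, beside 41.9% and 26.9% of all genes. The median was 0.22, against 0.13 for the 38 members. SIAE, which removes acetyl groups from sialic acid, was at 0.88 and ARSG, another heparan sulfate sulfatase, at 0.75, while CTSV, a relative of CTSL, was at -0.13. In TFEB/TFE3 WT cells the counts were 18 of 23 higher and 1 lower, beside 41.1% and 17.9% of all genes. In DKO cells they were 18 of 23 higher and 0 lower, beside 35.7% and 12.5%. The KO minus WT response to CCCP was called lower in 14 of these 23 and higher in 0, beside 17.7% and 10.5% of all genes.

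The genes listed as tagging hydrolases with mannose 6-phosphate or sorting them numbered 20, of which 19 passed the filter. With 991 at 16 h, 7 of 19 higher and 5 lower were called in AMPK WT cells, near the shares of all genes given above (41.9% and 26.9%). SCARB2, the receptor that carries glucocerebrosidase, rose by 0.48, and IGF2R, the larger mannose 6-phosphate receptor, by 0.42. NAGPA and GNPTG, which take part in making the tag, fell by 0.41 and 0.36. In TFEB/TFE3 WT cells IGF2R and SCARB2 rose by 0.64 and 0.43.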

How the data were processed

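Polyadenylated RNA of 240 HEK 293T libraries was measured in 80 groups of 3, in 5 tables. The deposited values are TPM per transcript, made by the authors, with 1 entry for each gene. Per the submitters' processing notes the tools were FastQC, STAR and HOMER with the genome build GRCh38. Versions and the strand of counting are not given in the sources used here. TPM keep no depth.

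Samples were placed by title, genotype and treatment tags. Where the wording of a label named another treatment or time than the library code in the column name, the library code and tags were used. This concerned AMPK WT with Phen at 2 h and with CCCP at 4 h. Genes with at least 1 TPM in 3 libraries of a table were tested on log2(TPM + 1) with limma 3.58.1 in R 4.3.3. Each table was fitted with 1 mean per group over all its libraries, the moderated test used a mean-dependent prior, and p-values were adjusted by Benjamini-Hochberg over all genes of a comparison at 0.05. A fold change on this scale understates that of genes with low TPM. Response differences are interaction contrasts, treated minus DMSO in 1 arm minus the same in the other. Python 3.11.15 with pandas 2.3.3 and matplotlib 3.10.9 was used for counts and plots. The fit was tried on simulated data, for 991 at 16 h in each control arm. Of log2 changes of 0.5, it called 94% in the AMPK table and 39% in the FNIP1 table, with 80% to 85% in the others. Of log2 changes of 1, it called 74% in the FNIP1 table and 95% to 99% in the others. Unchanged genes called numbered 5 to 9 per table. Only 100 genes of each size were changed, with independent normal noise of the same SD for a gene in all groups. In the data many more genes were called and some libraries stood apart, so these percentages are not the recovery in the data.

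Per-library values are given for members among the 4 largest called rises and falls at 16 h (each compound in AMPK WT, 991 in the other control arms), for those among the 4 largest called differences in each direction between arms at 16 h and under DMSO, and, where none was called, for the member with the lowest p. Other members are named to account for the list or to set an arm beside its partner. The members and lists were chosen with earlier results of these data known. Alternatives were leaving out each replicate number in turn, a replicate block, a fit of only the groups compared, no filter on low values, a pseudocount of 0.1, and scaling by median ratios or quantiles. Replicate numbers come from the labels, which do not say what they mark. Of 27 comparisons checked, same-numbered libraries deviated together in every pair (correlation over 0.1) in 2, AMPK KO minus WT under DMSO and Phen minus CCCP, and the block changed neither count of calls by more than 1.5 times.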

Additional observations from a re-analysis of the deposited data

Results flagged for a closer look

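The response to a compound at 16 h differed between arms, by limma's test of the difference itself with Benjamini-Hochberg adjustment, for the following members. Each value is the log2 difference of the responses, the altered arm minus its control arm.

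With 991 in AMPK KO against WT cells the values were -0.23 for HEXA, -0.46 for GALC, -0.26 for NPC2, -0.58 for GLA and -0.39 for SMPD1. With CCCP the glycosidases were at -0.83 for GLA, -0.44 for GALC, -0.42 for FUCA1, -0.30 for GLB1, -0.28 for MAN2B1 and -0.25 for HEXA. The proteases with CCCP were at -0.34 for TPP1, -0.30 for CTSB, -0.19 for SCPEP1 and 0.79 for DPP7, the lone positive value. The lipid genes were at -0.51 for NPC2, -0.34 for SMPD1, -0.24 for LIPA, -0.23 for PSAP and -0.21 for ASAH1, and HGSNAT was at -0.48. With Phen the values were -0.54 for NAGLU, -0.49 for SMPD1, -0.40 for HEXA, -0.39 for GALC, -0.39 for MANBA, -0.30 for TPP1 and -0.25 for MAN2B1. With Rot GLA was at -0.49. GLA appears with 991, CCCP and Rot, and HEXA, GALC and SMPD1 appear with 991, CCCP and Phen, against the same DMSO libraries.

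With 991 in TFEB/TFE3 DKO against WT cells the values were -0.47 for HEXA, -0.41 for CTSD, -0.31 for TPP1, -0.27 for ACP2, -0.24 for PSAP, -0.23 for CTSL, -0.20 for SCPEP1, 0.13 for LGMN and 0.33 for CTSC. With 991 in ESRRA KO against WT cells they were -0.54 for GAA and -0.29 for NAGLU.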

How the results depend on the processing

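Of 35 counts of called members, 33 stayed within 1.5 times of the reported value with median-ratio scaling, 34 with quantile normalization, 35 with a pseudocount of 0.1, 35 with no filter on low values, and 30 when only the groups compared were fitted. The cause was not tested for those that moved. In FNIP1 SA5 cells the 22 members called with 991 became 11 with median-ratio scaling, 11 with quantile normalization and 0 with only the groups compared, and the 5 called under DMSO became 3 with median-ratio scaling, 0 with only the groups compared, 2 without the outlying DMSO library and 8 without both outlying libraries, the last 2 settings being chosen after seeing the data. With only the groups compared, the 13 in FNIP1 WT cells became 24, the 14 of ESRRA KO under DMSO became 9, and the 2 ESRRA response differences became 1. HEXA and MAN2B1 in SA5 minus WT under DMSO changed sign with median-ratio scaling, to 0.042 (limma adjusted p = 0.739) and 0.046 (adjusted p = 0.803).

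Adding the replicate block raised the 5 response differences to 991 in AMPK cells to 9 and moved no other count by over 1.5 times. Leaving out each replicate number in turn gave, for AMPK KO minus WT responses, 1 to 6 members with 991, 9 to 17 with CCCP, 2 to 9 with Phen and 0 to 1 with Rot. CCCP minus 991 ranged from 10 to 13. With 991 the range was 2 to 21 in FNIP1 WT, 14 to 20 in SA5 and 15 to 21 in siPGC1A. Response differences ranged from 2 to 6 for TFEB/TFE3 and 0 to 1 for ESRRA. Under DMSO the ranges were 0 to 3 for SA5, 6 to 7 for ESRRA KO and 11 to 14 for siPGC1A. Of 236 named values, median-ratio scaling ended 13 calls besides the 2 reversals, quantile normalization 14, fitting only the groups compared 19, no filter 8, a pseudocount of 0.1 3, the block 1, and leaving out replicate number 1, 2 or 3 ended 27, 39 and 42. Then 2 libraries per group remain. TPM hold no depth, so no counting error could be given.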
